A study of Mus musculus with 23 samples.

Results

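The alpha and mu classes of glutathione S-transferases (GSTs) were followed gene by gene in the mouse ileum, the last part of the small intestine. The set was given as a list of 10 genes, *Gsta1* to *Gsta4* and *Gstm1* to *Gstm6*, and its probes were all those that carry one of these gene names on the array. *Gsta1* had no probe under its own name. The other 9 genes had 14 probes, of which 13 were among the 37161 probes of the table of normalised values, where 17574 genes have a name. The levels below are log2 normalised signals, so that a difference of 1 is a doubling. A gene's value is that of its probe with the highest mean signal, and where a gene had another probe it is given beside the first.

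GSTs join the small peptide glutathione to reactive, electron-poor compounds, which makes these compounds more soluble and ready for export from the cell. The alpha and mu enzymes are soluble dimers of the cytosol and make up much of the GST protein of liver and intestinal epithelium. Their genes lie in clusters, and several are known targets of the nuclear receptors PXR and CAR and of the oxidant sensor NRF2.

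Each of 23 arrays came from 1 male C57BL/6J mouse. Wild-type (WT) mice were bought at 6 weeks of age and kept for a further 2 weeks before the study. Mice with no functional pregnane X receptor gene (*Nr1i2*), called *Pxr*-/- and backcrossed to the same strain, came from a colony kept in house for 10 years, so that genotype cannot be told apart from breeding origin, and the sources used here give no age for them. PCN (pregnenolone 16-alpha-carbonitrile), a steroid ligand of mouse PXR, was injected into the abdomen in corn oil once a day for 4 days at 100 mg/kg, and the controls (CONT) had the oil alone. Tissue was taken at ZT6, when 6 h had passed since the last injection. The groups were WT CONT (n = 6), WT PCN (n = 5), *Pxr*-/- CONT (n = 6) and *Pxr*-/- PCN (n = 6). The labels allocate 6 mice to WT PCN as well, and the array of the other mouse was not analysed here.

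The arrays were alike in brightness, with a median spot signal of 74 to 106.5 on the linear scale over a local background of 19 to 28.5. All 13 member probes were well above background on all 23 arrays and none was saturated. *Cyp3a11*, a P450 under PXR control, was higher after PCN by 3.53 in WT (limma, adjusted p = 1.49e-06) and differed by -0.05 in *Pxr*-/- (adjusted p = 0.952). *Cyp2c55*, a further P450, rose in both (3.51 and 1.58, the latter with an adjusted p of 0.0484), and *Cyp2b10*, a P450 known as a CAR target, by 4.60 in WT, while its change in *Pxr*-/- was 0.71 and was not called. The *Nr1i2* probe did not separate the genotypes (-0.41, adjusted p = 0.334), and whether it lies in the deleted stretch was not tested. The ileal genes *Fabp6* and *Slc10a2*, which bind and take up bile acids, had group means of 18.35 to 18.52 and of 14.71 to 14.83. The 2 measured colon markers (*Car1* and *Slc26a3*, with *Aqp8* not among the probes used) averaged 11.25 in *Pxr*-/- CONT replicate 3 and 12.55 in *Pxr*-/- PCN replicate 3, against at most 9.76 on the other arrays. In the *Pxr*-/- groups *Car1* had an SD of 1.89 without and 2.84 with PCN, against 0.22 and 0.25 for *Slc26a3*. The mean of *Slc26a3* was 11.85 and 11.80 there and 11.85 in WT CONT, so that the high averages came mainly from *Car1*. Without either of these replicate 3 arrays in turn, the counts of called members below were the same in each of the 5 comparisons.

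In WT mice, PCN raised 6 of the 9 measured genes, *Gstm3*, *Gsta2*, *Gstm6*, *Gsta4*, *Gstm1* and *Gstm4*, and lowered none. A gene was called when limma's adjusted p over all probes was at most 0.05 and the fold change was above 1.5, and by this rule 0.6% of all probes were called higher and 0.0915% lower. The median change of the 9 genes was 0.81, against -0.015 over all probes. In *Pxr*-/- mice, 0 of the 9 genes were called, and their changes ran from -0.17 to 0.20. The 5 WT PCN arrays lay wholly above the 6 WT CONT arrays for 6 genes, where 1.43% of all probes did so. These were the called genes without *Gsta4*, whose groups overlapped, and with *Gstm2*, which was not called. RNA came from whole tissue, in which more cells of a type and more RNA per cell cannot be told apart.

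**Figure D1:**
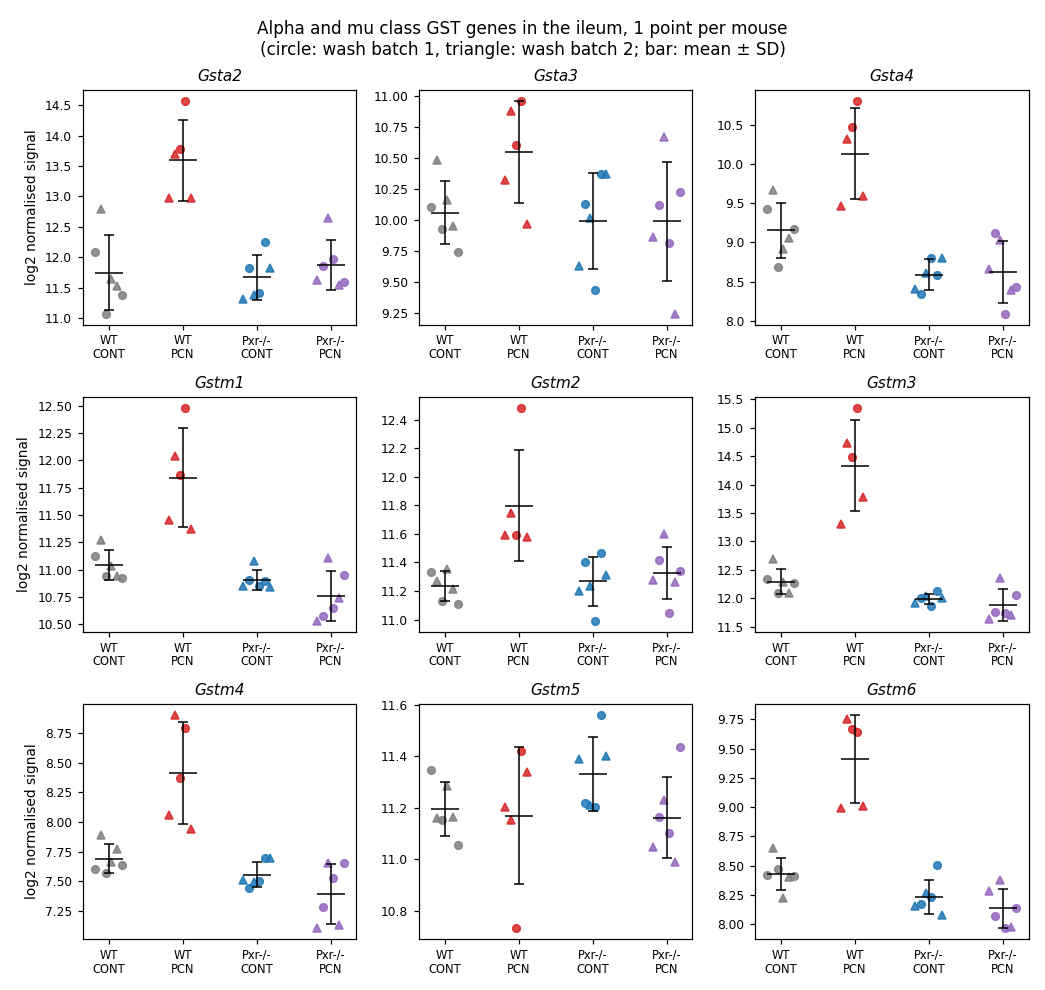
Log2 normalised signal (vertical axes, each panel with its own scale) of the 9 measured alpha and mu class genes in the 4 groups, 1 point per mouse, circles for wash batch 1 and triangles for wash batch 2, with bars for the mean ± SD. WT PCN stands above the other 3 groups for *Gstm3* (13.31 to 15.35 against at most 12.69 in WT CONT), and its points fall among theirs for *Gstm5*.

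*Gstm3* had the largest change of the set. It codes for a mu class subunit, and its probe is placed by the array annotation at chr3:107766730-107766789 on the minus strand of mm9, within the cluster of mu genes. The level was 13.31, 14.74, 14.48, 15.35 and 13.77 on the 5 WT PCN arrays, against a lowest, median and highest value of 12.09, 12.27 and 12.69 in WT CONT. Values in *Pxr*-/- mice were 11.87, 12.00 and 12.12 (in the same order) without PCN and 11.63, 11.74 and 12.36 with PCN. Every WT PCN mouse thus exceeded every mouse of the other 3 groups, and the 12 *Pxr*-/- mice overlapped between treatments. The change in WT was 2.06 (SE 0.231, adjusted p = 1.97e-05), a 4.16-fold rise that ranked 31st among the 37161 probes. The change in *Pxr*-/- was -0.12 (SE 0.220, adjusted p = 0.814), with a 95% interval of -0.57 to 0.34.

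*Gsta2*, an alpha class gene on chromosome 9 (probe at chr9:78178856-78178915, minus strand, mm9), followed. It was at 12.97, 13.69, 13.78, 14.58 and 12.97 on the WT PCN arrays and at 11.07, 11.59 and 12.80 (lowest, median, highest) in WT CONT. The *Pxr*-/- groups stood at 11.31, 11.62 and 12.25 without PCN and at 11.55, 11.74 and 12.65 with PCN. The WT groups did not overlap, although the highest WT CONT mouse (12.80) came close to the lowest WT PCN mouse (12.97), and the other 3 groups lay over each other. The rise in WT was 1.86 (SE 0.294, 3.63-fold, adjusted p = 0.00104), and in *Pxr*-/- the change was 0.20 (SE 0.280, adjusted p = 0.731). The highest *Pxr*-/- PCN mouse (12.65) was replicate 3, the array on which the 2 colon markers averaged 12.55, mainly through *Car1*. Without this array the change in *Pxr*-/- was 0.027.

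The *Gsta2* value cannot be credited to 1 gene alone. Its 60-base probe is 3 edits from the probe of the neighbouring alpha class gene *Gm10639*, and no other member probe came within 15 edits of a probe for another gene. The first 30 bases of both are shown because they differ by a single base there (capital; T23G, counted from the 5′ end of the *Gsta2* probe).
Gsta2 probe: gccacagatactggcctctaatTgtttgca
Gm10639 probe: gccacagatactggcctctaatGgtttgca
The *Gm10639* probe changed with PCN by 1.84 in WT (SE 0.294, adjusted p = 0.00112) and by 0.18 in *Pxr*-/- (SE 0.279, adjusted p = 0.774). Over the 23 arrays the values of both probes had a Pearson correlation of 0.995, and of 0.981 once group and batch means were removed. Whether either probe also takes up *Gsta1* RNA was not tested. Member probes were compared with other probes of the array and not with transcripts. Uptake of RNA from related genes was therefore not tested for any member.

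*Gstm6* and *Gstm1*, mu class genes of the chromosome 3 cluster, were called on their brighter probe and were smaller in change on the other. For *Gstm6* the brighter probe (chr3:107741766-107741825, minus strand, mm9) read 8.99, 9.75, 9.66, 9.64 and 9.01 in WT PCN, against 8.23, 8.41 and 8.65 in WT CONT. The *Pxr*-/- mice ran from 7.96 to 8.50 over both treatments, so that WT PCN was again apart from all other mice. The change in WT was 0.99 (SE 0.128, 1.99-fold, adjusted p = 0.000112). The other probe, which the annotation spreads over 538 bases of the genome (chr3:107745662-107746199), changed by 0.48 (SE 0.128, adjusted p = 0.071) and was not called. The start of both is printed to show that they hold different sequence.
Gstm6 brighter probe, first 30 bases: ccatctccagagtgggaaggcccagtcttg
Gstm6 other probe, first 30 bases: acaggctatgaagagaggagatacgccatg

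For *Gstm1*, known as a major mu form of mouse liver, the brighter probe read 11.45, 12.04, 11.87, 12.48 and 11.37 in WT PCN and 10.92, 10.99 and 11.27 in WT CONT. Without a functional receptor the mice ran from 10.84 to 11.07 without PCN and from 10.53 to 11.10 with it. The WT groups did not overlap, with a change of 0.81 (SE 0.146, 1.75-fold, adjusted p = 0.00379). The other probe changed by 0.42 (SE 0.142, adjusted p = 0.178), and 4 of 5 WT PCN arrays lay above all of WT CONT. The array annotation assigns both probes to the *Gstm1* transcript, but places the brighter one on chromosome 5 (chr5:117082490-117082549, mm9) and the other in the mu cluster (chr3:107815595-107815654, mm9). Which place is right was not tested. With the probes of each gene averaged, *Gstm1* changed by 0.62 (adjusted p = 0.0239) and *Gstm6* by 0.735 (adjusted p = 0.000979), and both remained called.

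*Gsta4* and *Gstm4* were called with less margin. *Gsta4*, whose enzyme favours aldehydes from lipid peroxidation such as hydroxynonenal, read 9.47, 10.33, 10.47, 10.82 and 9.59 in WT PCN against 8.69, 9.11 and 9.67 in WT CONT. The *Pxr*-/- PCN mice were lower than all WT PCN mice, at 8.08 to 9.12. WT PCN replicates 1 and 5 fell inside the control range, and the other 3 lay above it. The change was 0.99 (SE 0.224, 1.99-fold, adjusted p = 0.0252), with a 95% interval of 0.52 to 1.46. The call was lost without any 1 of 7 arrays, WT CONT replicates 3, 4, 5 and 6 and WT PCN replicates 2, 3 and 4, with adjusted p of up to 0.0843 and a change of at least 0.81 in each case. Its probe is placed at chr9:78046172-78047344 (mm9), 1173 bases for a 60-base probe.

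*Gstm4*, a further gene of the mu cluster, did not overlap between the WT groups, at 8.06, 8.90, 8.37, 8.79 and 7.94 in WT PCN against 7.57, 7.65 and 7.89 in WT CONT. Values in *Pxr*-/- were lower than in WT PCN in every mouse, at 7.45 to 7.69 without and 7.10 to 7.65 with PCN. It changed by 0.73 (SE 0.146, 1.65-fold, adjusted p = 0.00975). Fitted on the 2 WT groups alone, the change was 0.72 with an adjusted p of 0.066.

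Of the 3 genes not called in WT, *Gstm2* missed the fold threshold. Its WT PCN values were 11.59, 11.75, 11.59, 12.48 and 11.57, above the 11.11 to 11.35 of WT CONT, and its change of 0.57 (SE 0.133, 1.48-fold) had an adjusted p of 0.0325. The *Pxr*-/- CONT mice, at 10.99 to 11.46, lay below all WT PCN mice, as did 5 of the 6 *Pxr*-/- PCN mice. The highest *Pxr*-/- PCN mouse, replicate 3 at 11.60, reached into the WT PCN range. On its array the 2 colon markers averaged 12.55, mainly through *Car1*. *Gstm2* passed the threshold, with changes of 0.60 to 0.63, without WT CONT replicate 4 or WT PCN replicate 1, 3 or 5. *Gsta3*, a gene on chromosome 1 whose mouse enzyme is known for the detoxification of aflatoxin epoxide, differed by 0.49 (SE 0.223, adjusted p = 0.383), and its other probe by 0.46 (adjusted p = 0.507). WT PCN values of *Gsta3* ran from 9.97 to 10.96 and overlapped the 9.74 to 10.48 of WT CONT and the 9.24 to 10.67 of *Pxr*-/- PCN. The 95% interval of its change, 0.03 to 0.95, includes rises of the size called for *Gstm4*. A further *Gsta3* probe, outside the table of normalised values, was above background on 4 of 23 arrays and had means of 5.23 to 5.26 in the 4 groups after quantile normalisation.

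*Gstm5* was the only one of the 9 without a positive change in WT. Its WT PCN values of 11.20, 11.15, 10.73, 11.42 and 11.34 lay around the 11.06 to 11.35 of WT CONT, with a change of -0.03 (SE 0.106, adjusted p = 0.965) and a 95% interval of -0.245 to 0.195. The other *Gstm5* probe gave -0.09 (SE 0.119, adjusted p = 0.852). The interval of the brighter probe excludes a 1.5-fold rise or fall.

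**Figure D2:**
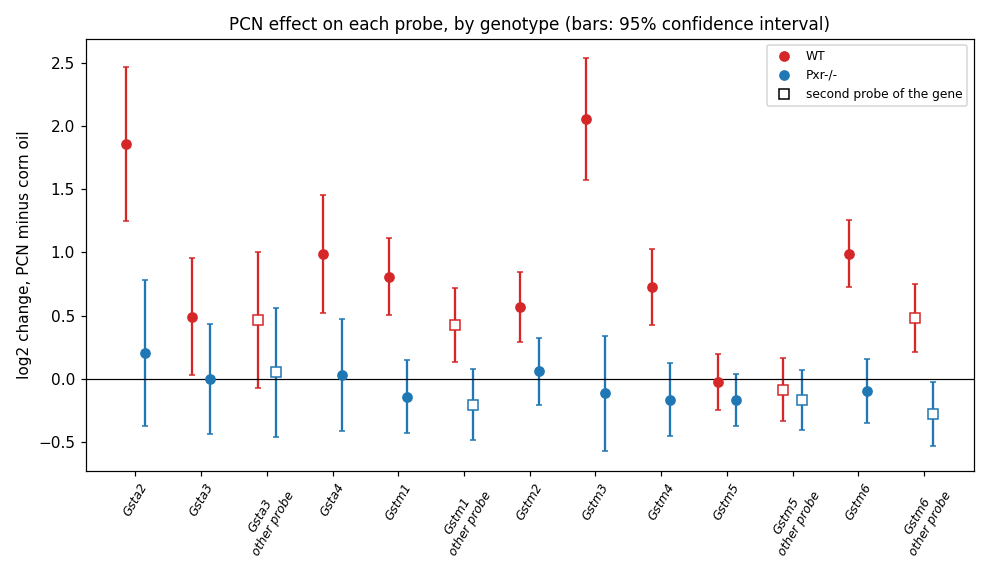
Log2 change with PCN against corn oil (vertical axis) for each of the 13 probes of the 9 genes, in WT (red) and *Pxr*-/- (blue), with 95% confidence intervals from limma, where filled circles are the brightest probe of a gene and open squares its other probe. In WT the change runs from -0.03 for *Gstm5* to 2.06 for *Gstm3*, and in *Pxr*-/- all 9 filled points lie between -0.17 and 0.20.

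In *Pxr*-/- mice the same 9 genes gave 0 calls with limma, where 0.947% of all probes were called. Of the 9, 0 had an unadjusted p of at most 0.05, where 7281 of 37161 probes did. The median change was -0.10, against -0.011 over all probes. The *Pxr*-/- PCN and *Pxr*-/- CONT arrays overlapped for all 9, where 1.44% of all probes had groups apart with PCN higher and 1.24% with PCN lower. The intervals show what could have been missed. For *Gstm6* (-0.35 to 0.15), *Gstm1* (-0.43 to 0.14), *Gstm4* (-0.45 to 0.12), *Gstm2* (-0.21 to 0.32) and *Gstm5* (-0.38 to 0.04), they exclude a 1.5-fold rise. Those of *Gstm3* (-0.57 to 0.34), *Gsta3* (-0.44 to 0.44) and *Gsta4* (-0.41 to 0.47) exclude it too, whereas for *Gsta2* the interval reached 0.785. The other probe of *Gstm6* was at -0.28 (SE 0.122, unadjusted p = 0.0311, adjusted p = 0.203).

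Whether the PCN effect differed between the genotypes was tested as the difference of both effects in the same fit. *Gstm3* differed by 2.17 (SE 0.319, adjusted p = 0.00314) and *Gstm6* by 1.09 (SE 0.176, adjusted p = 0.00753), and these 2 of 9 were called, where 0.078% of all probes were. The remaining 7 genes were not called, with 0.95 for *Gstm1* (SE 0.202, adjusted p = 0.0901), 0.89 for *Gstm4* (SE 0.201, adjusted p = 0.149), 1.66 for *Gsta2* (SE 0.406, adjusted p = 0.233) and 0.96 for *Gsta4* (SE 0.310, adjusted p = 0.698). All 9 differences were above 0, and 7 had an unadjusted p of at most 0.05, where 1679 of 37161 probes did. For *Gsta2*, *Gsta4*, *Gstm1* and *Gstm4*, a call in WT beside none in *Pxr*-/- was therefore not matched by a called difference. *Gstm2* differed by 0.51 (adjusted p = 0.926), *Gsta3* by 0.49 and *Gstm5* by 0.14 (adjusted p = 1 for both). Leaving out WT PCN replicate 5 brought the count to 4, by adding *Gstm1* (1.06, adjusted p = 0.0239) and *Gstm4* (1.00, adjusted p = 0.0381). *Gstm1* was also called without WT PCN replicate 1 (1.04, adjusted p = 0.0481), and *Gsta2* without WT CONT replicate 2 (1.90, adjusted p = 0.0358). With the slide as a fixed term the count was 0. The arrays of WT CONT and WT PCN enter both this test and the change in WT.

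Without PCN, 0 of the 9 genes were called by limma between the genotypes, where 0.148% of all probes were. An unadjusted p of at most 0.05 was found for 3354 of 37161 probes and for 1 of the 9 genes. This was *Gsta4*, lower in *Pxr*-/- CONT by -0.57 (SE 0.213, adjusted p = 0.382), at 8.35, 8.60 and 8.81 (lowest, median, highest) against 8.69, 9.11 and 9.67 in WT CONT. All 6 *Pxr*-/- CONT mice were under the WT CONT mean, and 4 were under its lowest mouse. *Gstm3* differed by -0.30 (SE 0.220, adjusted p = 0.772), with 5 of 6 *Pxr*-/- CONT mice under the lowest WT CONT mouse, and the other 7 genes lay between -0.20 and 0.14. The median over the 9 was -0.13, against 0.003 over all probes. The 95% intervals of *Gsta4* (-1.01 to -0.12), *Gstm3* (-0.76 to 0.155) and *Gsta2* (-0.66 to 0.50) include a level 1.5-fold lower in *Pxr*-/- CONT.

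With PCN, the same 6 genes that rose in WT were lower in *Pxr*-/- than in WT, where 0.304% of all probes were called lower. The difference was -2.47 for *Gstm3* (5.56-fold, adjusted p = 7.3e-07), -1.74 for *Gsta2* (adjusted p = 0.00271), -1.52 for *Gsta4* (adjusted p = 0.000512), -1.29 for *Gstm6* (adjusted p = 1.73e-06), -1.09 for *Gstm1* (adjusted p = 0.000152) and -1.03 for *Gstm4* (adjusted p = 0.000319). All 6 *Pxr*-/- PCN mice lay below all 5 WT PCN mice for each of these genes, where 0.775% of all probes did so. The other probes of *Gstm1* (-0.81, adjusted p = 0.00382) and *Gstm6* (-0.69, adjusted p = 0.00711) were called here too. *Gsta3* (-0.56, adjusted p = 0.521), *Gstm2* (-0.48, adjusted p = 0.155) and *Gstm5* (-0.01, adjusted p = 1) were not. This comparison shares its WT PCN arrays with the PCN effect in WT, and so is not a separate sign of it.

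The 5 WT PCN mice differed in size of response. Replicate 4 was the highest of the 5 for 7 genes and replicate 2 for *Gstm4* and *Gstm6*, while replicates 1 and 5 were the lowest for 4 genes each, and replicate 3 for *Gstm5*. The wash batches of the arrays run partly along this line, since replicates 3 and 4 were in batch 1 and the others in batch 2. Within batch 1 (3 WT CONT and 2 WT PCN arrays) the change was 2.69 for *Gstm3*, 2.67 for *Gsta2*, 1.55 for *Gsta4*, 1.22 for *Gstm6*, 1.18 for *Gstm1* and 0.97 for *Gstm4*. Within batch 2 (3 arrays of each) it was 1.59, 1.22, 0.58, 0.82, 0.54 and 0.52 for the same genes in this order, all of one sign with batch 1. A test of the difference between batches, chosen after these values were seen, called 0 of the 9 genes and 0 of all probes (limma, smallest adjusted p = 1), with 4 of the 9 at an unadjusted p of at most 0.05, where 1.67% of all probes were. In *Pxr*-/- the same test had 0 of the 9 at that level (limma), where 4.68% of all probes were.

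**Figure D3:**
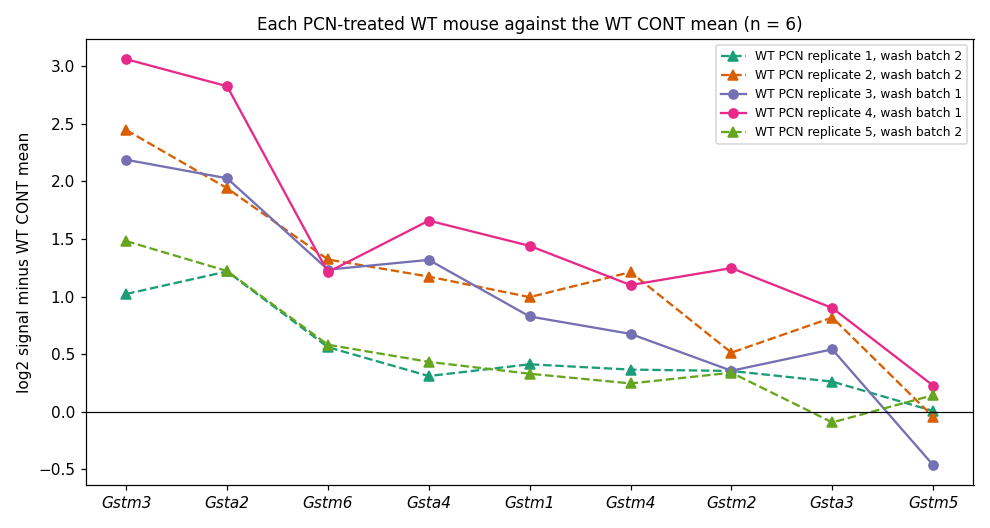
Log2 signal of each of the 5 WT PCN mice minus the mean of the 6 WT CONT mice (vertical axis) for the 9 measured genes (horizontal axis, in order of the change), with solid lines for wash batch 1 and dashed lines for wash batch 2. Replicate 4 is the highest for 7 of the 9 genes, and replicates 1 and 5 lie lowest for 4 each.

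Markers of other cells were set beside these values. Over all 37161 probes, 4374 had an unadjusted p of at most 0.05 (limma) for PCN in WT. For PCN in *Pxr*-/- 7281 did, and the list counts here and below are to be read beside these. The 8 absorptive enterocyte genes had a mean level of 14.65 to 15.32 in WT CONT and 14.89 to 15.34 in WT PCN, and 0 of 8 were called for PCN in WT by limma, with 3 at an unadjusted p of at most 0.05. The 5 B cell genes averaged 7.28 to 7.76 in WT CONT, and 10.66 and 10.75 in WT PCN replicates 2 and 3, against 7.88 to 7.90 in replicates 1, 4 and 5, with 0 of 5 called by limma and 5 of 5 at an unadjusted p of at most 0.05. Replicate 4, with the highest *Gstm3*, was among those near the control level of B cell genes. Its means of the fibroblast genes (13.38) and the macrophage genes (11.03) were the highest of the WT PCN arrays. In WT CONT these means were at most 12.61 and 10.8. Without replicates 2 and 3, PCN in WT changed *Gstm3* by 1.89 (adjusted p = 0.000794), *Gsta2* by 1.78 (adjusted p = 0.016), *Gstm6* by 0.80 (adjusted p = 0.00273) and *Gstm1* by 0.74 (adjusted p = 0.0428), *Gstm2* was called as well (0.66, adjusted p = 0.0466), and *Gsta4* (0.82, adjusted p = 0.187) and *Gstm4* (0.59, adjusted p = 0.0744) no longer were. Of 3 neutrophil genes, *S100a8* and *S100a9* were called higher with PCN in both genotypes. They rose by 1.63 and 2.16 in WT and by 2.56 and 2.90 in *Pxr*-/-. *Ly6g*, the other gene of this list, went the other way, at -0.26 in WT and -0.23 in *Pxr*-/-, and was not called. All 3 had an unadjusted p of at most 0.05 (limma) in both genotypes. In *Pxr*-/-, PCN also raised *Col1a1* (1.01) and *Col3a1* (0.81) of 4 fibroblast genes, *Cd68* (0.60) of 4 macrophage genes and *Cnn1* (0.66) of 5 smooth muscle genes, and lowered *Fcgbp* (-0.64) and *Agr2* (-0.86) of 5 goblet cell genes. In WT none of these lists had a call, although all 5 goblet genes had an unadjusted p of at most 0.05. The part of these cells in the results was not tested. For the remaining lists (4 Paneth, 4 enteroendocrine, 6 stem and proliferating, 3 T cell, 4 hepatocyte, 2 colon and 4 proximal small intestine genes), 0 were called by limma with PCN in either genotype, with 3 at an unadjusted p of at most 0.05 in WT and 8 in *Pxr*-/-. The hepatocyte genes averaged 8.15 to 9.61 over all arrays.

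Besides *Gm10639*, called above, further GST genes were read from a list that does not hold it. Of 19 listed genes of the further classes (pi, theta, omega, kappa, zeta, the membrane-bound MGSTs, and mu and alpha genes outside the set such as *Gstm7*), 16 were measured, and 0 were called in any of the 5 comparisons by limma, with 5 at an unadjusted p of at most 0.05 for PCN in WT and 5 in *Pxr*-/-. The listed alpha genes *Gsta13* and *Gm3776* were not among those measured, so these counts cover no alpha gene. The median change of the 16 genes with PCN in WT was 0.03. *Mgst2*, a membrane-bound enzyme, had the lowest adjusted p, with a change of 0.53 (SE 0.107, adjusted p = 0.00974), below the fold threshold. *Gstk1*, the kappa enzyme of mitochondria and peroxisomes, was at 0.54 (SE 0.161, adjusted p = 0.12). *Gstm7*, a further mu gene, was at -0.20 (SE 0.122, adjusted p = 0.561). The pi genes *Gstp1*, *Gstp2* and *Gstp3* lay between -0.25 and -0.04, and were not called.

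**Figure D4:**
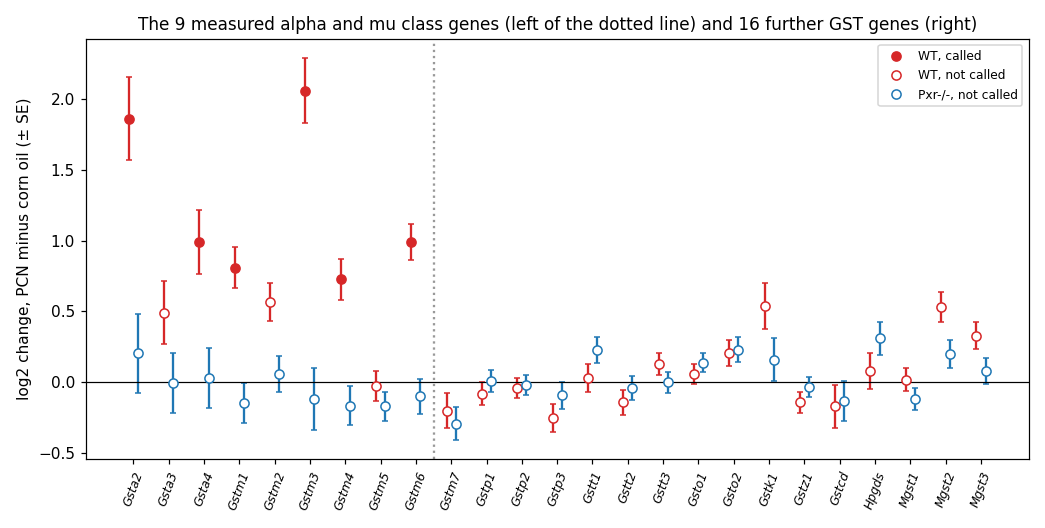
Log2 change with PCN (vertical axis, ± SE) in WT (red) and *Pxr*-/- (blue) for the 9 measured alpha and mu class genes left of the dotted line and for 16 further GST genes right of it, filled where called. The 6 filled points all lie left of the line, and on the right the WT changes reach 0.54 at most, for *Gstk1*. *Gm10639*, called in WT, is not drawn.

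Genes that act before and after conjugation were read from lists. Of 17 genes for making and using glutathione, 0 were called by limma in either genotype, with 5 at an unadjusted p of at most 0.05 in WT and 7 in *Pxr*-/-, and the median change in WT was 0.04. In *Pxr*-/-, *Gclc* (0.55, SE 0.114, adjusted p = 0.0102) and *Gsr* (-0.49, SE 0.107, adjusted p = 0.0154) missed only the fold threshold. Of 13 genes for export and breakdown of conjugates, *Abcc2*, which codes for a pump for glutathione and glucuronide conjugates in the brush border, rose with PCN in WT by 1.36 (SE 0.233, adjusted p = 0.00235), with a mean of 11.68 ± 0.42 (SD, n = 5) against 10.33 ± 0.28 (n = 6). Its change in *Pxr*-/- was 0.70 (adjusted p = 0.0766), and the difference of the effects (0.66) was not called (adjusted p = 1). *Dpep2*, a dipeptidase, rose in *Pxr*-/- (0.66, adjusted p = 0.0188) and was at 0.38 in WT (adjusted p = 0.322). Of 15 targets and partners of NRF2, *Hmox1*, which opens the ring of heme, rose in *Pxr*-/- (1.27, SE 0.280, adjusted p = 0.0154) and was at 1.14 in WT (adjusted p = 0.0565). None of the other 14 was called in either genotype. *Ugdh* of this list (0.42, adjusted p = 0.0314) and *Abcg2* of the export list (-0.40, adjusted p = 0.0272) missed only the fold threshold in *Pxr*-/-.

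The pattern of *Gstm3* over the 23 arrays was closest, among 17565 named genes outside the set, to those of *Cyb5a* (Pearson r = 0.947), *Cyp2b9* (0.941), *4931406C07Rik* (0.935), *Cyp2b10* (0.928) and *Krt31* (0.925). These values describe arrays that share 4 groups, and with group and batch means removed they were 0.566, 0.414, 0.322, 0.398 and 0.406 in the same order. *Cyb5a* codes for cytochrome b5, an electron donor to P450 enzymes, and changed with PCN by 0.73 in WT and 0.03 in *Pxr*-/-. After *Gm10639*, the genes closest to *Gsta2* were *Cyb5a* (0.879), *Ugt1a6b* (0.87), *4931406C07Rik* (0.859) and *Rbbp8* (0.854). With group and batch means removed, these were 0.435, 0.598, 0.239 and 0.606 in the same order.

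The promoters of the members were read for short motifs. RefSeq starts on build GRCm38.p6 were at hand for 9 of the 10 listed genes, with 13 starts in all and none for *Gsta4*. Each window ran from 250 bases before the start to 50 after it. The half-sites AGGTCA and AGTTCA of nuclear receptors, their direct repeats spaced by NNN or NNNN, and the core TGACNNNGC of the antioxidant response element were searched on both strands. None was in the window of *Gstm3*, *Gsta2*, *Gsta1*, *Gstm2*, *Gstm4* or *Gstm6*. *Gstm1* had an AGGTCA at 1 of its 2 starts, *Gsta3* had a TGACNNNGC, and *Gstm5*, the member without a positive change in WT, had an AGTTCA and a TGACNNNGC. Of 32851 promoters of this length, 16.3% held AGGTCA, 13.99% AGTTCA, 12.4% TGACNNNGC, 0.012% a direct repeat with NNN and 0.027% one with NNNN. The 250 bases before the start of the 2 genes with the largest change and of *Gstm5* are given for comparison, motifs in capitals.
Gstm3 upstream of the start, GRCm38.p6 chr3:107969175-107969424, minus strand: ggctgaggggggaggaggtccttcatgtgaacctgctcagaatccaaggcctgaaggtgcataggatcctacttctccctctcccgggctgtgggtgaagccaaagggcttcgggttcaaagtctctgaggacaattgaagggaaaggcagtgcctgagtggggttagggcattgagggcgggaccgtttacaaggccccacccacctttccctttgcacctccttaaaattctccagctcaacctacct
Gsta2 upstream of the start, GRCm38.p6 chr9:78347146-78347395, minus strand: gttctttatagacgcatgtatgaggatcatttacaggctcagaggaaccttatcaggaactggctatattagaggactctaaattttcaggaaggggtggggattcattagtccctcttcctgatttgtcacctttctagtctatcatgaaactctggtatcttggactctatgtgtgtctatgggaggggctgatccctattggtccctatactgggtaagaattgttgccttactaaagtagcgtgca
Gstm5 upstream of the start, GRCm38.p6 chr3:107895604-107895853, plus strand: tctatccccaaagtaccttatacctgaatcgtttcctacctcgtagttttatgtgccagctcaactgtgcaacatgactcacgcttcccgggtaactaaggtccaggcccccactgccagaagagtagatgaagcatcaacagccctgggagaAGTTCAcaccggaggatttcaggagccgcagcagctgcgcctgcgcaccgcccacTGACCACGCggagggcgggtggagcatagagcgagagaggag
These letters describe the window only, and binding of a factor was not measured.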

How the data were processed

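RNA of each mouse (150 ng in total) was labelled with Cy3 by the authors and read on single-colour Agilent arrays, with Agilent Feature Extraction 10.10.1.1 named in the submitters' processing notes. Spot values in the scanner files are intensity as deposited. The deposited table holds log2 values that, per the study's methods, the authors made from the median signal by filtering, log2 transformation, correction for wash batch and CrossNorm normalization. The filter rule and the CrossNorm grouping are not given in the sources used here. All 23 of its columns held an identical set of values (median 8.0236), ranked nearly as the log2 median signal (Spearman correlation across probes 0.9995 to 0.9997). Forcing one distribution on all arrays makes each change relative to the other probes, and removing wash batch before deposit can understate the error, so that wash batch was also kept as a term.

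Models were fitted to the 37161 probes of the table with limma (version 3.58.1, R version 4.3.3), with 4 groups and wash batch. P-values are 2-sided and from moderated tests (eBayes), adjusted by the Benjamini-Hochberg procedure within each of 5 contrasts, and calls also required more than a 1.5-fold change. The code was tested on simulated data. Alternatives started from the scanner values (quantile normalized, median-centred, processed signal at the 75th percentile, or normexp with offset 50) or changed the model terms, filter, probes or arrays. Current symbols were taken from a RefSeq gene list by transcript accession or else by the array's gene name, so that 30571 probes name 17574 genes. Member probes were taken by the array's own gene name. Array positions are on mm9 and promoters on GRCm38.p6, and the exon structure under the probes was not analysed here. Replicates are separate mice, and their number limits the precision.

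The members and gene lists were chosen with earlier results of these data known. All members are named, as are the check genes *Nr1i2*, *Cyp3a11*, *Cyp2c55* and *Cyp2b10*, the called genes of the lists, and the 5 genes nearest in pattern to the 2 members with the largest change in WT. A further GST or pathway gene is named, after its values were seen, where it had the lowest adjusted p or the largest change of its list or belongs to the mu or pi class. Those that missed only the fold threshold are named as well.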

Additional observations from a re-analysis of the deposited data

Results flagged for a closer look

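Of 36 groups of values (9 genes in 4 groups), 2 held a mouse far from the rest of its group, where chance gives about 1 in 20 groups. *Gstm1* in *Pxr*-/- CONT replicate 3 was at 11.07, with the next mouse at 10.91 and the gap spanning 0.718 of the group's range. This array also had a high average of the 2 colon markers (11.25), mainly through *Car1*. *Gstm2* in WT PCN replicate 4 was at 12.48, with the next mouse at 11.75 and the gap spanning 0.808 of the range, and replicate 4 was the highest WT PCN mouse for 7 of the 9 genes.

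The PCN effect differed between the genotypes by test for *Gstm3* (2.17, adjusted p = 0.00314) and *Gstm6* (1.09, adjusted p = 0.00753). Within wash batch 1 the differences were 2.84 and 1.46, and within wash batch 2 they were 1.67 and 0.78.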

How the results depend on the processing

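Over 14 alternatives, the number of members called was 4 to 7 for PCN in WT, 0 for PCN in *Pxr*-/-, 0 to 2 for the difference of the PCN effects, 0 for *Pxr*-/- against WT without PCN and 5 to 6 with PCN. Without 1 array at a time (23 fits) these counts were 5 to 7, 0, 2 to 4, 0 and 6. The difference fell to 0 called with the slide as a fixed term (adjusted p = 0.0961 for *Gstm3*) and to 1 without WT PCN replicates 2 and 3, an alternative added after seeing the data. For PCN in WT, *Gsta4* and *Gstm4* were lost with the slide as a fixed term (adjusted p = 0.105 and 0.0503) and in the fit of the WT groups alone (0.0705 and 0.066). Replicate numbers did not pair the mice (same-numbered mice of different groups had a median correlation of deviations of -0.035, and 7 of 23 arrays correlated best with their own number). With the replicate block, 5 members were called for PCN in WT, *Gsta4* being lost (adjusted p = 0.0603).

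Changes near 0 turned sign. With PCN in *Pxr*-/-, *Gsta4* was -0.001 on median-centred signals, and *Gsta3* was 0.005 with normexp and quantile normalization and 0.023 as the mean of its probes. Without PCN, *Gsta3* in *Pxr*-/- against WT was 0.051 with the slide as a fixed term. *Gstm5* was 0.003 with PCN in *Pxr*-/- against WT as the mean of its probes, and 0.136 for PCN in WT without WT PCN replicates 2 and 3. Leaving out 1 array at a time, PCN in WT ran from -0.097 to 0.1 for *Gstm5*. PCN in *Pxr*-/- ran from -0.15 to 0.151 for *Gsta3*, from -0.065 to 0.156 for *Gsta4* and from -0.005 to 0.122 for *Gstm2*. *Pxr*-/- against WT without PCN ran from -0.238 to 0.154 for *Gsta2*, from -0.152 to 0.052 for *Gsta3* and from -0.006 to 0.094 for *Gstm2*, and with PCN from -0.132 to 0.065 for *Gstm5*. The cause was not tested. Over all probes, the count called for *Pxr*-/- against WT without PCN moved from 55 to 257 with the slide as a fixed term, to 146 in the fit of those groups alone and to 84 with no fold threshold, and that for the difference moved from 29 to 17 with the slide as a fixed term. With no fold threshold the counts for PCN were 488 in WT (257 with it) and 1375 in *Pxr*-/- (352 with it), and that for *Pxr*-/- against WT with PCN was 233 (136 with it).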
